A study of Homo sapiens with 18 samples.

Results

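PODO/TERT256 podocytes grown on fractal hemispheres were compared with the same cells grown on smooth hemispheres, both left without inflammatory treatment. PODO/TERT256 is a human podocyte line immortalised with telomerase, so both groups represent 1 line and carry the added enzyme. The fractal control group and the smooth control group hold 3 libraries each, 6 of the 18 in the series, and were taken by their topography and treatment labels with no use of any measured value. The other 12 libraries are fractal and smooth cultures given TNF-α and IL-6 together, or kept with macrophages made from the human leukaemia line THP-1, with 3 libraries for each combination. They helped to estimate the spread and gave the same contrast of topographies under treatment. Surface dimensions, time in culture and cytokine doses are not given in the sources used here. The labels number the libraries of a group without saying whether each came from its own culture; the p-values then reflect the scatter of these libraries, which may be technical.

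Podocytes are the epithelial cells that wrap the capillaries of the kidney glomerulus, resting on a basement membrane of laminins and type IV collagens and joined to each other by the slit diaphragm. They grip that curved membrane through integrins and an actin skeleton, and the transcription regulators YAP, TAZ and SRF are known to respond to the shape and stiffness of what a cell adheres to. Other gene programs described below have textbook sensors: SREBP factors raise sterol and fatty acid genes when the membrane of the endoplasmic reticulum is short of cholesterol, bone morphogenetic proteins (BMPs) act through SMAD factors and are held back by secreted antagonists, and p53 raises genes that stop the cell cycle after damage.

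Each library was read as counts per gene, 13990684 to 21264180 in the 6 controls. Levels are given as CPM, counts scaled to a common library size, after TMM scaling, which corrects totals for differences in composition, and mean levels as mean ± SD with n = 3. Tests were quasi-likelihood F-tests of edgeR on 16129 genes in a model of all 18 libraries with 1 mean per group. A gene was called where its p-value, adjusted over all tested genes by the Benjamini-Hochberg method, was under 0.05, and log2 fold changes are fractal over smooth with their SE. The controls were the most alike of all groups, with a biological coefficient of variation of 4.67% among fractal and 4.55% among smooth controls against 8.02% to 24.9% in the treated groups. The model shares 1 spread per gene among all groups (12.2% in common). A model of the 6 control libraries alone (4.58%) is therefore given beside it, with the caution that 4 residual degrees of freedom support it. In the treated groups 2 libraries stood apart from their companions: replicate 3 of fractal THP-1 and replicate 2 of smooth cytokines, with 0.536% and 7.01% of counts on mitochondrially encoded genes, where the 6 controls had 3.42% to 3.84%.

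The label of the cells was only partly borne out by markers. Of 10 podocyte markers, SYNPO, which encodes the actin-binding protein synaptopodin, stood at 71.4, 66.5 and 69.5 CPM in fractal and at 69.5, 67.1 and 63.1 CPM in smooth controls. PODXL, which encodes the surface sialoprotein podocalyxin, stood at 10.0, 9.06 and 11.3 CPM in fractal and at 9.29, 8.75 and 11.2 CPM in smooth controls. These groups overlapped for both genes. None of the 5 tested podocyte markers was called over 18 libraries. In the 6 controls alone 1 of them was called lower, where 9.41% of all genes were. WT1 had no count in any control library, which allows at most 0.214 CPM in the shallowest of them, and NPHS1, the gene of the slit diaphragm protein nephrin, was counted in fractal control replicate 1 alone. Among markers of other cells, the 12 of monocytes and macrophages summed to 1.88 to 3.14 CPM in fractal and 1.82 to 2.68 CPM in smooth controls, with CD163, TYROBP and AIF1 at 0. The 6 endothelial markers summed to 8.50 to 12.1 CPM in fractal and 9.86 to 11.7 CPM in smooth controls. The 6 mesangial and smooth muscle markers summed to 42.2 to 44.7 CPM in fractal and 35.0 to 39.2 CPM in smooth controls. The 6 tubular epithelial markers summed to 0.459 to 1.32 CPM in fractal and 1.59 to 2.18 CPM in smooth controls, with SLC34A1 and UMOD at 0; the sums did not overlap, and CUBN, the gene of the uptake receptor cubilin, was called lower in the 6 controls alone (edgeR adjusted p = 0.049). The part of these cell types in the results below was not tested. RNA from bulk cultures cannot tell fewer cells of a kind from less RNA per cell.

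Between fractal and smooth controls 286 of 16129 genes were called, 1.77% of those tested. Of these, 105 were higher (0.651%) and 181 lower (1.12%) in fractal controls. The changes were moderate, with a median size of 0.49 on the log2 scale among the higher and 0.78 among the lower genes, and 10 higher and 64 lower genes differed at least 2-fold. Protein-coding genes made up 104 of the 105 higher and 168 of the 181 lower genes. The 3 fractal values lay wholly above or wholly below the 3 smooth values in all 286, as they did in 4881 genes tested, 30.3%. In the model of the 6 control libraries alone 2755 of 14187 genes were called (19.4%), 1420 higher (10%) and 1335 lower (9.41%), and 104 of the 105 and 178 of the 181 genes were among them. Without the 2 treated libraries that stood apart, 1188 of 16569 genes were called (7.17%), 577 higher (3.48%) and 611 lower (3.69%). The count thus differed with the libraries that entered the model, and leaving out any 1 control library lowered the count to between 131 and 150. Only 31 higher and 62 lower genes were called in each of those 6 omissions. Simulated counts took smooth control means in every group and the spread of all 18 libraries (12.2% in common, against 4.58% in the controls). Changes were put only into genes above a minimum expected count. In these counts 76% of 2-fold and 51% of 1.5-fold changes were called by the model of 18 libraries. Because the real controls scatter less, these shares are not recovery rates for this comparison.

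**Figure D1:**
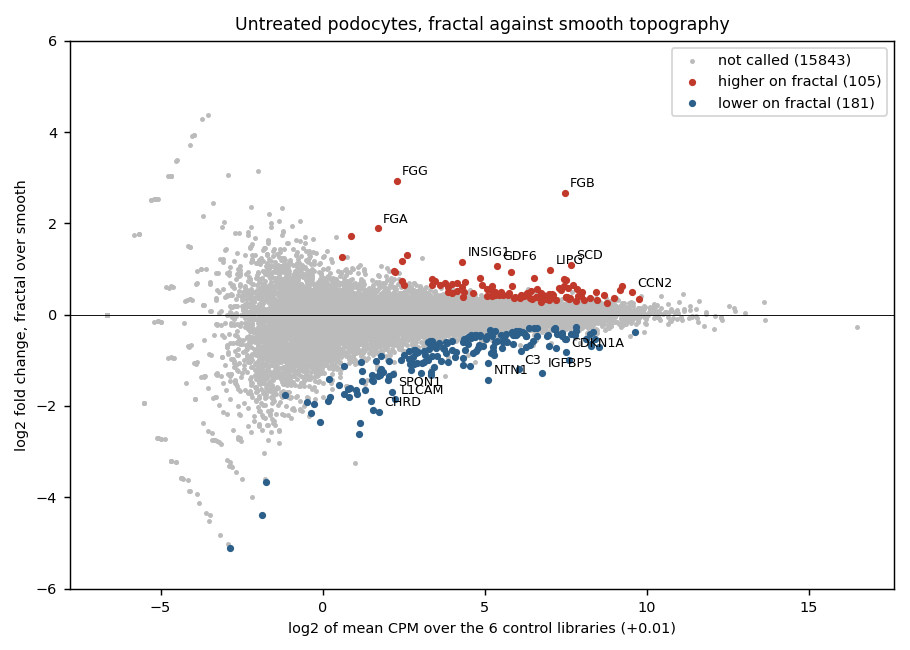
Each point is 1 of the 16129 tested genes, with the log2 of its mean CPM over the 6 control libraries on the x axis and its log2 fold change, fractal over smooth, on the y axis. The 105 genes called higher (red) and the 181 called lower (blue) lie mostly within 2 units of 0, and the fibrinogen genes FGB and FGG stand highest among the called genes.

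The genes of all 3 fibrinogen chains were higher in fractal controls, and FGB and FGG had the largest log2 fold changes of the genes called higher. Fibrinogen is the plasma protein that thrombin turns into fibrin; it is made mainly by hepatocytes from an α, a β and a γ chain, and IL-6 and HNF1 factors act on its promoters there. The 3 genes lie side by side on chromosome 4 (GRCh38), where the starts of FGB and FGG are 50011 bases apart. FGB, the β chain gene (chr4:154562956-154571086), had 306, 309 and 304 CPM in fractal controls against 43.5, 54.1 and 46.9 CPM in smooth controls. FGG, the γ chain gene (chr4:154604134-154612967), had 8.03, 8.83 and 8.85 CPM in fractal and 0.647, 1.04 and 1.74 CPM in smooth controls. FGA, the α chain gene (chr4:154583126-154590766), had 4.53, 5.40 and 5.41 CPM in fractal and 1.18, 1.96 and 0.943 CPM in smooth controls. No fractal library overlapped a smooth library in any of the 3. The log2 fold changes were 2.67 ± 0.33 for FGB (edgeR adjusted p = 0.000876), 2.93 ± 0.57 for FGG (0.0154) and 1.89 ± 0.36 for FGA (0.0057). Without smooth control replicate 2 the adjusted p of FGG was 0.11, and FGG lost its call in each omission but that of smooth control replicate 3; the FGB call held in all 6. In the model of the 6 controls the adjusted p-values were 4.19e-49, 2.35e-20 and 2.19e-09 for FGB, FGG and FGA. Beside them, the sum of the 8 hepatocyte markers was 5.91 to 8.92 CPM in fractal and 6.09 to 8.23 CPM in smooth controls, with APOA2, TTR and AHSG at 0.

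Stretches before the RefSeq starts of the 3 genes are shown because the genes moved together; they are RefSeq sequence of GRCh38.p14, read 5′ to 3′ along the gene. The gene positions and the distance above are those of GENCODE 29. The RefSeq starts lie 24 bases downstream of the GENCODE starts in FGB and FGA and 311 bases downstream in FGG, so the FGG stretch falls inside the GENCODE gene. Capitals mark GTTAAT, the core of the HNF1 motif, read on the other strand as ATTAAC, and CTGGGAA, the letters of the IL-6 response element. Both strands were searched in the 250 bases before the RefSeq start, from which positions are counted.
FGB, chr4:154562780-154562955, plus strand: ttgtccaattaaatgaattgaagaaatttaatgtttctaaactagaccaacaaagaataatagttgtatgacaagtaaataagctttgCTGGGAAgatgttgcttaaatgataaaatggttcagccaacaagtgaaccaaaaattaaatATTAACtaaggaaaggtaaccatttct
FGA, chr4:154590767-154590942, minus strand: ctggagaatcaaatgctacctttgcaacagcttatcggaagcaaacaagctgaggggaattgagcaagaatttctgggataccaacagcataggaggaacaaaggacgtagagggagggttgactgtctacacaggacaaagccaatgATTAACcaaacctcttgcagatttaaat
FGG, chr4:154612800-154612829, minus strand: tgtgtgcaaaatCTGGGAAcctgacagtat
The HNF1 letters were found at -52 in FGA and at -51 in FGB, 2 of 3 promoters, and in 6.22% of 27305 promoters in the same window. The IL-6 letters were found at -112 in FGB and at -161 in FGG, 2 of 3, and in 9.3% of the 27305. These are matches of letters and no measure of binding. FGL1, which encodes a fibrinogen-like protein of the liver, had a count in smooth control replicate 1 alone and was not tested.

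Sterol genes were higher in fractal controls at several levels of the SREBP pathway, and none was called lower. Of 9 tested genes of sterol sensing and uptake 4 were called higher, of 20 cholesterol synthesis enzymes 4, and of 14 genes of fatty acid synthesis and desaturation 4, where 0.651% of all tested genes were called higher. The median log2 fold changes of the 3 lists were 0.27, 0.32 and 0.22, beside -0.01 over all tested genes. All 20 cholesterol enzymes had a positive value, the lowest being 0.01 in PMVK and SC5D. With the 6 controls alone 5, 12 and 9 members were called higher and none lower, where 10% of all genes were.

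INSIG1 led the sensing and uptake genes. The gene (chr7:155297776-155310235), whose product holds SREBP back in the endoplasmic reticulum and is itself an SREBP target, had 28.2, 26.4 and 27.9 CPM in fractal and 10.6, 14.0 and 12.3 CPM in smooth controls. The libraries of each group were close together and the groups far apart. The log2 fold change of INSIG1 was 1.16 ± 0.14 (edgeR adjusted p = 1.46e-05). STARD4, a carrier of cholesterol between membranes, had 27.9, 26.7 and 23.8 CPM in fractal and 15.7, 15.8 and 15.9 CPM in smooth controls, a log2 fold change of 0.73 ± 0.13. SREBF2, the gene of the SREBP form that acts chiefly on sterol genes, had 147, 142 and 151 CPM in fractal and 103, 108 and 112 CPM in smooth controls. Its log2 fold change was 0.44 ± 0.09 (edgeR adjusted p = 0.00688, and 0.063 without smooth control replicate 1), whereas SREBF1 did not pass the test (0.27 ± 0.10, adjusted p = 0.253). SCAP, INSIG2, NPC1 and NPC2, which escort SREBP, retain it or export cholesterol from lysosomes, did not pass it either, with values from -0.16 to 0.08.

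SREBF2 is known to be its own target, and its promoter held the letters TCACNCCAC of the sterol regulatory element. The stretch is shown with that element and, after it, the letters CCAAT on the other strand (read ATTGG) in capitals, since NF-Y at CCAAT is known to act beside SREBP.
SREBF2, chr22:41832935-41833034, plus strand: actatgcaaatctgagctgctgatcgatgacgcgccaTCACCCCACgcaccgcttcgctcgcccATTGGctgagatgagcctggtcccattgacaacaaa
The element lay at -133 and the CCAAT letters at -106 from the RefSeq start. Of 43 promoters found for the 52 members of the sterol, fatty acid and liver X receptor lists, SREBF2 alone held TCACNCCAC, which 0.875% of the 27305 promoters held. A missing match says only that these letters are not in that window.

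Among the synthesis enzymes DHCR7, a reductase of the last steps, had 46.7, 46.4 and 47.0 CPM in fractal and 34.8, 31.0 and 33.2 CPM in smooth controls. IDI1, an isomerase of the isoprenoid stage, had 28.5, 29.6 and 29.3 CPM in fractal and 21, 20.6 and 21 CPM in smooth controls. FDFT1, squalene synthase, had 69.3, 69.1 and 68.5 CPM in fractal and 50.1, 54.9 and 54.3 CPM in smooth controls. No group overlapped another in these 3 genes. The values of DHCR7, IDI1 and FDFT1 were 0.50 ± 0.10, 0.48 ± 0.11 and 0.38 ± 0.09, with edgeR adjusted p-values of 0.0074, 0.0172 and 0.0201. SQLE, squalene epoxidase, did not pass the test (0.22 ± 0.10, adjusted p = 0.393). IDI1 and FDFT1 lost their calls in each of the 6 omissions of a control library (adjusted p 0.062 to 0.098 and 0.069 to 0.16), and DHCR7 without smooth control replicate 2 (0.074).

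SCD (chr10:100347124-100364834), stearoyl-CoA desaturase, which makes oleic acid, had the smallest adjusted p of the genes named here. It had 275, 279 and 275 CPM in fractal controls, against 126, 130 and 132 CPM in smooth controls. The log2 fold change was 1.09 ± 0.08, with an edgeR adjusted p of 5.14e-09 that stayed at or below 4.5e-07 in every omission. FADS2, a desaturase of polyunsaturated fatty acids, had 45.3, 44.6 and 40.5 CPM in fractal and 30.3, 27.3 and 32.8 CPM in smooth controls (0.53 ± 0.12). ACSL3, which activates fatty acids, had 109, 114 and 115 CPM in fractal and 87.4, 81.4 and 89.0 CPM in smooth controls (0.39 ± 0.09). ACLY, which supplies acetyl-CoA from citrate, had 468, 487 and 472 CPM in fractal and 388, 395 and 411 CPM in smooth controls (0.26 ± 0.07). The 3 groups of fractal values lay above the smooth ones, but each of these 3 calls was lost in 4 or more of the 6 omissions. FASN, fatty acid synthase, stood at 242 ± 5.1 CPM in fractal and 171 ± 11 CPM in smooth controls and did not pass the test over 18 libraries (0.50 ± 0.15, adjusted p = 0.103), although it did in the 6 controls (1.12e-22). No member of the liver X receptor list was called; ABCA1, which exports cholesterol, stood at 0.23 ± 0.10 (adjusted p = 0.33). Outside the synthesis lists, LIPG, the phospholipase endothelial lipase, had 173, 168 and 181 CPM in fractal and 85.0, 91.5 and 86.6 CPM in smooth controls (0.99 ± 0.10, adjusted p = 8.93e-07). PLA2G4A, the cytosolic phospholipase that frees arachidonic acid, had 34.7, 33.9 and 40.9 CPM in fractal and 21.5, 22.3 and 19.1 CPM in smooth controls (0.80 ± 0.14, 0.00171).

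**Figure D2:**
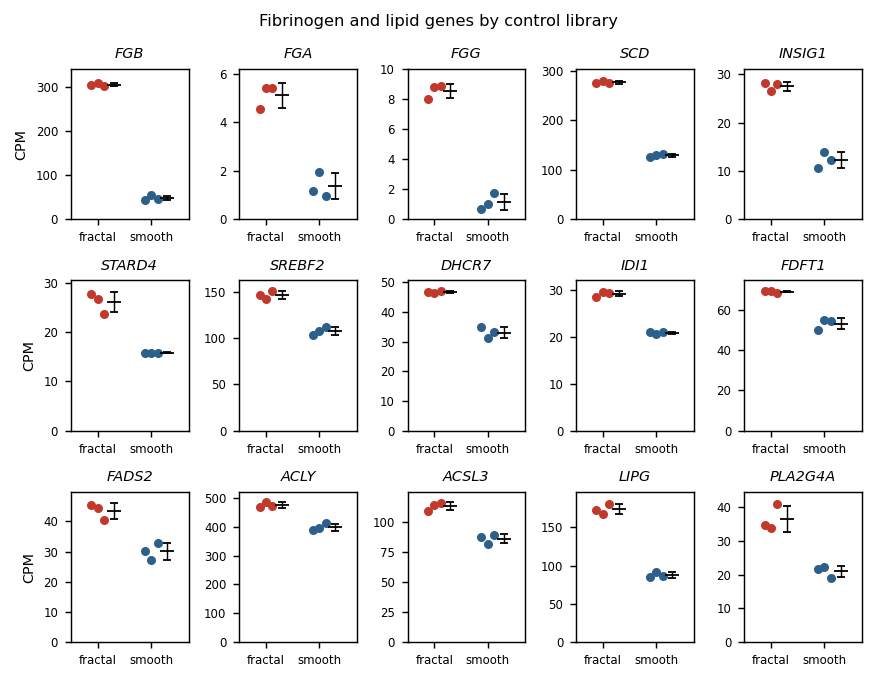
Each panel shows 1 gene in CPM (y axis, from 0), with a dot per fractal control library (red) and per smooth control library (blue) and, beside them, the mean ± SD of the 3. In every panel the 3 fractal dots lie above the 3 smooth dots, with the widest gap in FGB (306 ± 2.8 against 48.2 ± 5.4 CPM).

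BMP ligands and their antagonists did not move as blocks. Of 11 tested ligands and receptors 1 was called higher and 2 lower, and of 10 tested antagonists 1 was called higher and 2 lower. Over all tested genes 0.651% were called higher and 1.12% lower. GDF6 (chr8:96142330-96160792), a ligand of the family, had 57.8, 57.3 and 55.3 CPM in fractal and 24.3, 27.5 and 29.3 CPM in smooth controls (1.07 ± 0.13, edgeR adjusted p = 1.26e-05). BMP4, a ligand needed for early kidney and ureter development, had 1.55, 1.83 and 3.09 CPM in fractal and 4.82, 5.53 and 5.00 CPM in smooth controls (-1.25 ± 0.29, 0.0186). BMP6, best known for the control of iron through hepcidin, was near detection, at 0.344, 0.141 and 0.349 CPM in fractal and 0.588, 1.21 and 1.96 CPM in smooth controls (-2.15 ± 0.47, 0.0124). In all 3 the groups were apart, but the BMP4 call held only without fractal control replicate 3, and the BMP6 call was lost without smooth control replicate 3 (0.12) or fractal control replicate 2 (0.11).

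Chordin and noggin, which bind BMPs and keep them from their receptors, were lower in fractal controls. CHRD (chr3:184380073-184390736) had 0.746, 1.32 and 1.63 CPM in fractal and 4.29, 5.76 and 6.31 CPM in smooth controls (-2.13 ± 0.33, edgeR adjusted p = 0.00138). NOG had 3.73, 4.09 and 4.19 CPM in fractal and 8.35, 9.15 and 10.3 CPM in smooth controls (-1.21 ± 0.23, 0.00487). Both calls held in each of the 6 omissions, and limma-voom did not call CHRD (0.062). CRIM1, a membrane-bound antagonist, went the other way with 952, 969 and 998 CPM in fractal and 756, 765 and 767 CPM in smooth controls (0.35 ± 0.09, 0.0388), a call lost in every omission. GREM1, another secreted antagonist, stood at 327 ± 9.3 CPM in fractal and 261 ± 1.7 CPM in smooth controls and did not pass the test (0.32 ± 0.14, 0.311), nor did FST, follistatin (0.04 ± 0.17). BMP target genes were called higher in 2 of 10: ID1 had 45.8, 45.8 and 47.1 CPM in fractal and 35.5, 32.4 and 34.4 CPM in smooth controls (0.44 ± 0.10, 0.0229), and ID3 had 37.2, 39.4 and 37.8 CPM in fractal and 27.7, 28.3 and 29.8 CPM in smooth controls (0.42 ± 0.11, 0.0482). ID proteins hold back basic helix-loop-helix factors and are direct SMAD targets. Neither ID call survived an omission, and the median of the 10 targets was 0.29. The 2 called targets stand beside 0.651% of all tested genes called higher.

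The guidance gene NTN1 (chr17:9021542-9244000), netrin-1, a secreted guidance cue, had 20.0, 17.5 and 18.6 CPM in fractal controls, against 49.3, 48.1 and 53.1 CPM in smooth controls (-1.43 ± 0.13, edgeR adjusted p = 2.37e-07). NTNG1, the membrane-anchored netrin-G1, had 17.7, 19.3 and 16.9 CPM in fractal and 35.5, 29.4 and 32.2 CPM in smooth controls (-0.84 ± 0.11, 4.26e-05). Both calls held in every omission, while the netrin receptors UNC5B (-0.25 ± 0.12, adjusted p = 0.382) and NEO1 (-0.33 ± 0.21, 0.583) did not pass the test. Of 23 tested guidance genes 2 were lower and 2 higher: SEMA3F, a semaphorin, with 97.5, 103 and 96.7 CPM in fractal and 78.1, 76.2 and 81.1 CPM in smooth controls (0.34 ± 0.08), and PLXND1, a plexin receptor of semaphorins, with 160, 157 and 154 CPM in fractal and 115, 116 and 120 CPM in smooth controls (0.42 ± 0.08). The SEMA3F call was lost in all 6 omissions. Among all tested genes 1.12% were called lower and 0.651% higher. None of 15 tested ephrins and Eph receptors was called by edgeR; EPHA2, a receptor, stood at -0.02 ± 0.09. In the 6 controls alone EPHB2 was called, with 254, 270 and 272 CPM in fractal and 215, 220 and 227 CPM in smooth controls.

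Of 11 tested genes of neural adhesion and its membrane anchors 3 were lower and none higher, with a median log2 fold change of -0.45. Over all tested genes 1.12% were lower and 0.651% higher. In the 6 controls alone 5 members were lower and none higher, where 9.41% of all genes were lower and 10% higher. L1CAM, a neural cell adhesion molecule, had 2.47, 1.74 and 1.98 CPM in fractal and 8.41, 7.20 and 6.60 CPM in smooth controls (-1.85 ± 0.34, edgeR adjusted p = 0.00306). SPON1, the matrix protein F-spondin, had 2.47, 2.44 and 1.40 CPM in fractal and 6.47, 8.06 and 5.87 CPM in smooth controls (-1.68 ± 0.21, 2.83e-05). ANK1, the ankyrin that ties membrane proteins to spectrin, had 2.52, 2.21 and 3.09 CPM in fractal and 6.06, 7.25 and 5.80 CPM in smooth controls (-1.30 ± 0.20, 0.000542). The groups were apart in all 3 and each call held in the 6 omissions. All 3 genes, NTN1 and CHRD overlap a gene on the other strand, and the libraries kept no strand, so reads of the partners cannot be told apart.

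**Figure D3:**
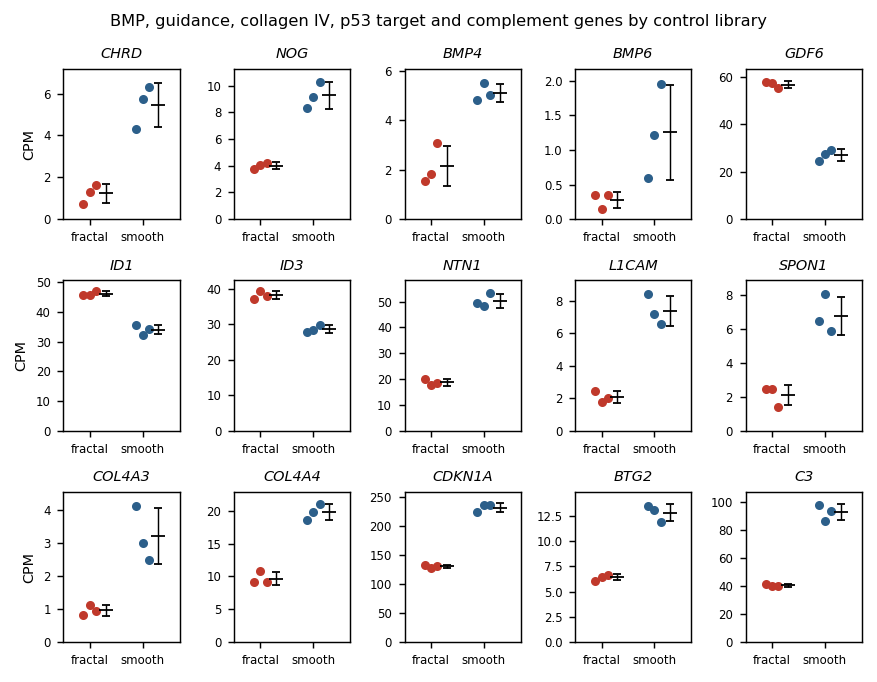
Each panel shows 1 gene in CPM (y axis, from 0), with a dot per fractal control library (red) and per smooth control library (blue) and, beside them, the mean ± SD of the 3. GDF6, ID1 and ID3 have their fractal dots above the smooth ones; the 12 other genes have them below, as NTN1 with 18.7 ± 1.2 against 50.2 ± 2.6 CPM.

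Of the type IV collagen chains of the mature glomerular basement membrane, COL4A4 and COL4A3 were called lower in fractal controls and COL4A5 was not called. COL4A3 and COL4A4 encode the α3 and α4 chains, which form a network with the α5 chain and are affected in Alport syndrome; the genes start 112 bases apart on chromosome 2 and run in opposite directions. COL4A4 (chr2:227002711-227164453) had 9.18, 10.8 and 9.08 CPM in fractal and 18.6, 19.9 and 21 CPM in smooth controls (-1.03 ± 0.20, edgeR adjusted p = 0.00487). COL4A3 (chr2:227164565-227314792), which overlaps a gene on the other strand, had 0.803, 1.13 and 0.931 CPM in fractal and 4.12, 2.99 and 2.47 CPM in smooth controls (-1.73 ± 0.42, 0.0283). The groups were apart in both. The COL4A4 call held in all 6 omissions and the COL4A3 call in none (0.051 to 0.21). COL4A5, the third partner, did not pass the test (0.14 ± 0.12, 0.744), nor did COL4A1, a chain of the network found in most basement membranes, at 3474 ± 69 CPM in fractal and 2842 ± 53 CPM in smooth controls (0.29 ± 0.11, 0.266; 2.45e-20 in the 6 controls).

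LAMA4, a laminin chain of vessels and mesenchyme, had 56.2, 51.9 and 51.5 CPM in fractal and 42.6, 35.4 and 35.5 CPM in smooth controls (0.49 ± 0.12, edgeR adjusted p = 0.0284). NID2, nidogen-2, which links laminin to collagen IV, had 53.1, 49.1 and 47.2 CPM in fractal and 36.7, 36.9 and 37.6 CPM in smooth controls (0.42 ± 0.10, 0.0254). The NID2 call held in no omission and the LAMA4 call only without smooth control replicate 1. LAMB2, the laminin chain typical of the glomerular membrane, did not pass the test over 18 libraries, at 318, 306 and 316 CPM in fractal and 331, 332 and 330 CPM in smooth controls (-0.08 ± 0.09, 0.827). Its groups were apart, and it was called lower in the 6 controls alone (0.0425). In all, 2 of 20 tested basement membrane genes were called higher and 3 lower over 18 libraries, beside 0.651% and 1.12% of all tested genes. The model of the 6 controls alone called 10 basement membrane genes higher and 7 lower, beside 10% and 9.41% of all genes.

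Of 24 stromal matrix genes none was called higher and 2 were lower over 18 libraries. In the 6 controls alone 9 were higher and 9 lower, and without the 2 libraries that stood apart 1 was higher and 6 lower. Over 18 libraries 0.651% of all tested genes were higher and 1.12% lower. In the 6 controls alone these shares were 10% and 9.41%, and without the 2 libraries 3.48% and 3.69%. TNC, the matricellular protein tenascin-C, had 239, 238 and 239 CPM in fractal and 377, 372 and 407 CPM in smooth controls (-0.69 ± 0.17, edgeR adjusted p = 0.0463). LUM, the keratan sulphate proteoglycan lumican, had 16.1, 16.4 and 18.2 CPM in fractal and 25.3, 25.6 and 22.7 CPM in smooth controls (-0.54 ± 0.12, 0.0123). FN1, fibronectin, took 8.27%, 8.26% and 8.33% of all counts in fractal and 10.1%, 9.84% and 10.1% in smooth controls. Its groups were apart, but it did not pass the test over 18 libraries (-0.28 ± 0.11, 0.29). FN1 was called lower in the 6 controls alone (6.54e-29) and without the 2 libraries that stood apart (7.25e-05). ADAMTS5, a protease of proteoglycans, had 61.3, 68.8 and 65.6 CPM in fractal and 105, 103 and 102 CPM in smooth controls (-0.66 ± 0.14, 0.0157) and was the only called member of 16 tested metalloproteinases and inhibitors. The TNC and ADAMTS5 calls were lost in all 6 omissions and the LUM call in 4.

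Genes that respond to adhesion and mechanical load were called in numbers that differed with the model. Over 18 libraries 0.651% of all tested genes were called higher and 1.12% lower. Among 23 targets of TGF-beta 3 rose and none fell, of 21 YAP and TAZ targets 2 were higher, of 18 SRF and actin targets none was called, of 15 integrins 1 was lower and of 15 focal adhesion proteins 1 was higher. In the 6 controls alone, where 10% of all genes were higher and 9.41% lower, 14 TGF-beta targets were higher and 4 lower, and 7 YAP and TAZ targets were higher and 4 lower. In that model 5 SRF and actin targets were higher and 5 lower, 3 integrins higher and 4 lower, and 4 focal adhesion proteins higher and 1 lower. CCN2, a matricellular protein and target of both TGF-beta and YAP, had 868, 885 and 873 CPM in fractal and 627, 611 and 624 CPM in smooth controls (0.50 ± 0.08, edgeR adjusted p = 0.000601). The other classical YAP targets CCN1 (-0.05 ± 0.09) and ANKRD1 (0.04 ± 0.15) did not pass the test, with 766, 762 and 759 CPM in fractal and 774, 806 and 785 CPM in smooth controls for CCN1. SNAI1, a repressor of epithelial genes, had 12.9, 12.8 and 12 CPM in fractal and 7.70, 8.41 and 7.98 CPM in smooth controls (0.65 ± 0.14, 0.0134). ITGA11, the α11 collagen-binding integrin, had 233, 225 and 232 CPM in fractal and 328, 330 and 337 CPM in smooth controls (-0.53 ± 0.12, 0.018), and TNS1, the focal adhesion protein tensin-1, had 298, 277 and 290 CPM in fractal and 214, 208 and 230 CPM in smooth controls (0.41 ± 0.10, 0.0265). Only the CCN2 call among these held in all 6 omissions. ACTB and ACTG1, the cytoplasmic actins, did not pass the test (0.08 ± 0.09 and 0.15 ± 0.08).

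No gene of the podocyte slit diaphragm and cytoskeleton list was called among 16 tested, and none of 9 podocyte transcription and secreted factors. At an adjusted p under 0.05 in the 6 controls alone 2 of the 16 were higher and 3 lower, where 10% of all genes were higher and 9.41% lower. The median was 0.02. ACTN4, the α-actinin altered in a familial glomerulosclerosis, had 1242, 1227 and 1215 CPM in fractal and 1252, 1185 and 1252 CPM in smooth controls, and CD2AP, a slit diaphragm adaptor, stood at 0.02 ± 0.10. VEGFA, the endothelial growth factor that podocytes secrete, had 252, 247 and 246 CPM in fractal and 322, 329 and 334 CPM in smooth controls. Its groups were apart, the test over 18 libraries was not passed (-0.40 ± 0.12, edgeR adjusted p = 0.11) and that over the 6 controls was (1e-20). Of 12 tested intermediate filament genes 2 were called higher, both keratins, with KRT7 at 266, 262 and 253 CPM in fractal and 160, 176 and 162 CPM in smooth controls (0.65 ± 0.14, 0.0143) and KRT19 at 215, 200 and 216 CPM in fractal and 129, 145 and 133 CPM in smooth controls (0.63 ± 0.14, 0.018). These are filament proteins of simple epithelia. Over 18 libraries 0.651% of all tested genes were called higher and 1.12% lower. Junction genes fell in 2 of 19: CLDN1, a tight junction claudin, had 279 ± 14 CPM in fractal and 403 ± 14 CPM in smooth controls (-0.53 ± 0.10, 0.006), and CDH13, a cadherin anchored by lipid, had 234, 238 and 249 CPM in fractal and 374, 381 and 374 CPM in smooth controls (-0.65 ± 0.11, 0.00107). Of these 4, CDH13 kept its call in every omission, CLDN1 lost it without fractal control replicate 1 (0.055), KRT19 in 4 omissions and KRT7 in 5. PDGFRB, a growth factor receptor of mesangial cells and a member of the mesangial marker list, had 24.8, 21.7 and 24.9 CPM in fractal and 15.2, 17.5 and 14.4 CPM in smooth controls (0.60 ± 0.13, 0.0105), a call lost in 4 omissions.

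Targets of p53 were lower in fractal controls in 5 of 24 and higher in none over 18 libraries. Of all tested genes 1.12% were called lower. Negative values were found in 21 of the 24 (median -0.27). The model of the 6 controls alone called 14 targets lower and 1 higher, beside 9.41% and 10% of all genes. CDKN1A (chr6:36676460-36687339), which encodes the cell cycle inhibitor p21, had 133, 128 and 131 CPM in fractal and 223, 236 and 235 CPM in smooth controls (-0.82 ± 0.08, edgeR adjusted p = 2.37e-07). BTG2, an antiproliferative cofactor, had 6.08, 6.48 and 6.69 CPM in fractal and 13.5, 13.1 and 11.9 CPM in smooth controls (-1.0 ± 0.17, 0.00138). SESN2, a stress sensor that restrains mTORC1, had 47.7, 53.3 and 50.9 CPM in fractal and 87.5, 86.7 and 89.8 CPM in smooth controls (-0.80 ± 0.18, 0.0275). MDM2, the ubiquitin ligase of p53, had 60.8, 61.2 and 61.4 CPM in fractal and 86.8, 80.7 and 72.4 CPM in smooth controls (-0.39 ± 0.09, 0.027), and TP53INP1, an autophagy and apoptosis factor, also fell (-0.61 ± 0.15, 0.0293). The groups were apart in all 5. CDKN1A and BTG2 kept their calls in every omission, MDM2 only in that of smooth control replicate 3, and SESN2 and TP53INP1 in none.

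Cell cycle genes were not called by edgeR over 18 libraries, in 20 genes of G1/S and DNA replication and 20 of mitosis. The 20 mitosis genes all had negative values, with a median of -0.16, and 13 of them were called lower in the 6 controls alone, where 9.41% of all genes were. TOP2A, a mitotic topoisomerase, had 346, 346 and 345 CPM in fractal and 371, 372 and 374 CPM in smooth controls (-0.11 ± 0.09, edgeR adjusted p = 0.71). The replication genes had a median of 0.16, and 5 were called higher in the 6 controls alone, where 10% of all genes were. Over 18 libraries 1.12% of all tested genes were called lower. Immediate early genes, which respond to growth factors and stress within minutes, were lower in 4 of 27: KLF2, KLF4, KLF6 and FOSB. KLF6, a zinc finger factor, had 272, 269 and 250 CPM in fractal and 344, 362 and 351 CPM in smooth controls (-0.41 ± 0.07, 0.00212), the only one of the 4 whose call held in every omission. KLF2 had 4.93, 4.74 and 4.60 CPM in fractal and 8.82, 9.15 and 9.43 CPM in smooth controls (-0.94 ± 0.22, 0.0206), and KLF4, a factor of differentiation, had 8.09, 7.33 and 6.35 CPM in fractal and 14.7, 13.9 and 12.2 CPM in smooth controls (-0.91 ± 0.21, 0.0195).

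Some inflammatory genes were lower in fractal controls, which had received no cytokine and no macrophages. Of 38 tested targets of NF-kB and TNF, 5 fell and 2 rose, with a median of -0.19, beside 1.12% lower and 0.651% higher of all tested genes. In the 6 controls alone 18 were lower and 4 higher, where 9.41% of all genes were lower and 10% higher. IL1B, interleukin-1β, had 28.2, 26.2 and 24.6 CPM in fractal and 44.5, 48.2 and 48.0 CPM in smooth controls (-0.83 ± 0.17, edgeR adjusted p = 0.0107). IL6, the gene of interleukin-6, had 23.9, 23.6 and 26.0 CPM in fractal and 34.6, 32.7 and 33.9 CPM in smooth controls (-0.46 ± 0.09, 0.00743). The neutrophil chemokine CXCL1 had 171, 171 and 174 CPM in fractal and 228, 231 and 238 CPM in smooth controls (-0.43 ± 0.09, 0.00638). CXCL8, another chemokine of neutrophils, had 661, 720 and 725 CPM in fractal and 907, 923 and 898 CPM in smooth controls (-0.37 ± 0.08, 0.0123). TNFAIP6, a hyaluronan-binding protein induced by TNF, had 2.30, 3.33 and 2.56 CPM in fractal and 6.17, 5.18 and 5.44 CPM in smooth controls (-1.03 ± 0.21, 0.00944). No group overlapped another, and of these 5 calls only that of CXCL1 held in all 6 omissions. PTGS2, the prostaglandin synthase COX-2, and ICAM1, a leukocyte adhesion molecule, were higher instead. PTGS2 had 67.8, 72.0 and 67.6 CPM in fractal and 46.9, 43.6 and 44.3 CPM in smooth controls (0.62 ± 0.12, 0.00415), and ICAM1 had 23.2, 22.5 and 22.2 CPM in fractal and 15.8, 17.5 and 18.6 CPM in smooth controls (0.39 ± 0.10, 0.0267). The PTGS2 call held in every omission and the ICAM1 call only in that of smooth control replicate 3. The monocyte chemokine CCL2 had 15.6, 18 and 17.3 CPM in fractal and 34.1, 36.2 and 35.2 CPM in smooth controls but did not pass the test over 18 libraries (-1.05 ± 0.31, 0.133; 1.62e-19 in the 6 controls).

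Complement genes were lower in 4 of 15 and higher in none (median -0.43), beside 1.12% and 0.651% of all tested genes. In the 6 controls alone 7 were lower and none higher, where 9.41% of all genes were lower and 10% higher. C3 (chr19:6677704-6730562), the central component of the cascade, had 41.8, 40.1 and 40.1 CPM in fractal and 97.8, 86.9 and 94.0 CPM in smooth controls (-1.19 ± 0.13, edgeR adjusted p = 5.41e-06). C1R and C1S, proteases of the classical pathway, had -0.61 ± 0.14 (0.0153) and -0.78 ± 0.18 (0.0248). The call of C3 held in every omission, that of C1R was lost in 3 and that of C1S in 5. Among 16 genes of antigen presentation by MHC class I 1 was lower: HLA-B had 56.7, 60.3 and 58.4 CPM in fractal and 95.4, 97.5 and 93.7 CPM in smooth controls (-0.71 ± 0.10, 0.000225), though reads shared among HLA genes make the level of each uncertain. None of 24 type I interferon response genes and none of 14 IL-6 and STAT3 response genes was called; STAT3 stood at -0.11 ± 0.08. In the 6 controls alone 1 interferon gene was higher and 1 lower, and 3 of the IL-6 and STAT3 genes were lower.

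Stress and metabolic lists held a few calls each over 18 libraries, beside 0.651% higher and 1.12% lower of all tested genes. NRF2 and antioxidant genes were higher in 2 of 20: NQO1, a quinone reductase, with 157, 153 and 157 CPM in fractal and 117, 111 and 113 CPM in smooth controls (0.45 ± 0.08, edgeR adjusted p = 0.00181), and TKT, transketolase, with 470, 476 and 485 CPM in fractal and 345, 359 and 354 CPM in smooth controls (0.44 ± 0.09, 0.0125). Heat shock genes were higher in 2 of 17, with HSPA2 at 6.14, 6.62 and 5.41 CPM in fractal and 3.00, 3.17 and 3.26 CPM in smooth controls (0.95 ± 0.22, 0.02). HSPA1A was called too (0.60 ± 0.13, 0.0125), but shares most of its sequence with HSPA1B, which was not called (0.44 ± 0.17, 0.254). The metallothionein MT1E, a zinc-binding protein with near-identical relatives, had 112, 120 and 119 CPM in fractal and 80.7, 80.4 and 77.4 CPM in smooth controls (0.56 ± 0.11, 0.00643). In the unfolded protein and integrated stress response, PDIA4, a disulphide isomerase of the endoplasmic reticulum, was higher (0.36 ± 0.07, 0.0074), and SESN2, given above, was lower. ADM, the vasodilator adrenomedullin, was lower at 26.5, 30.4 and 26.8 CPM in fractal and 47.1, 46.3 and 51.3 CPM in smooth controls (-0.79 ± 0.15, 0.00508), the only call among 24 hypoxia and glycolysis genes over 18 libraries. More members were called in the 6 controls alone, where 10% of all genes were higher and 9.41% lower. In that model 10 NRF2 and antioxidant genes were higher and 1 lower, and 9 heat shock genes were higher and none lower. Of hypoxia and glycolysis genes 9 were higher and 1 lower, and of the unfolded protein and integrated stress response 6 were higher and 10 lower. None of the 13 mitochondrially encoded genes was called over 18 libraries, and 12 had negative values. The sum of their counts was 3.42% to 3.65% in fractal and 3.74% to 3.84% in smooth controls. The 2 libraries that stood apart in their mitochondrial share help to set the spread of these genes in that model. With the 6 controls alone 4 of the 13 were lower and 1 higher, where 9.41% of all genes were lower and 10% higher. Without the 2 libraries 3 were lower and none higher, beside 3.69% and 3.48% of all genes. Of the genes called over 18 libraries in this paragraph, NQO1, MT1E and ADM kept their calls in all 6 omissions.

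Of 11 tested Wnt ligands and antagonists 2 were called higher, and of 11 tested Notch pathway genes 1 lower. Among all tested genes 0.651% were called higher and 1.12% lower. WNT5A, a ligand of non-canonical Wnt signalling, had 139, 134 and 136 CPM in fractal and 102, 99.1 and 113 CPM in smooth controls (0.38 ± 0.08, edgeR adjusted p = 0.00557), and SFRP1, a secreted Wnt antagonist, had 125, 129 and 130 CPM in fractal and 95.2, 95.3 and 92.9 CPM in smooth controls (0.44 ± 0.10, 0.0187). JAG1, a Notch ligand, had 76.8, 70.7 and 69.0 CPM in fractal and 105, 109 and 108 CPM in smooth controls (-0.57 ± 0.09, 0.000601). Of 14 tested phosphodiesterase and related genes PDE4B and PDE7B, which break down cyclic AMP, were higher. PDE4B had 7.11, 6.39 and 9.08 CPM in fractal and 3.06, 3.17 and 3.84 CPM in smooth controls (1.17 ± 0.18, 0.000601), and PDE7B had 5.74, 7.19 and 7.63 CPM in fractal and 4.17, 4.32 and 3.77 CPM in smooth controls (0.74 ± 0.17, 0.0195). The JAG1 and PDE4B calls held in every omission, the PDE7B call in 1 and the SFRP1 call in none. WNT5A lost its call without smooth control replicate 2 (0.061).

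**Figure D4:**
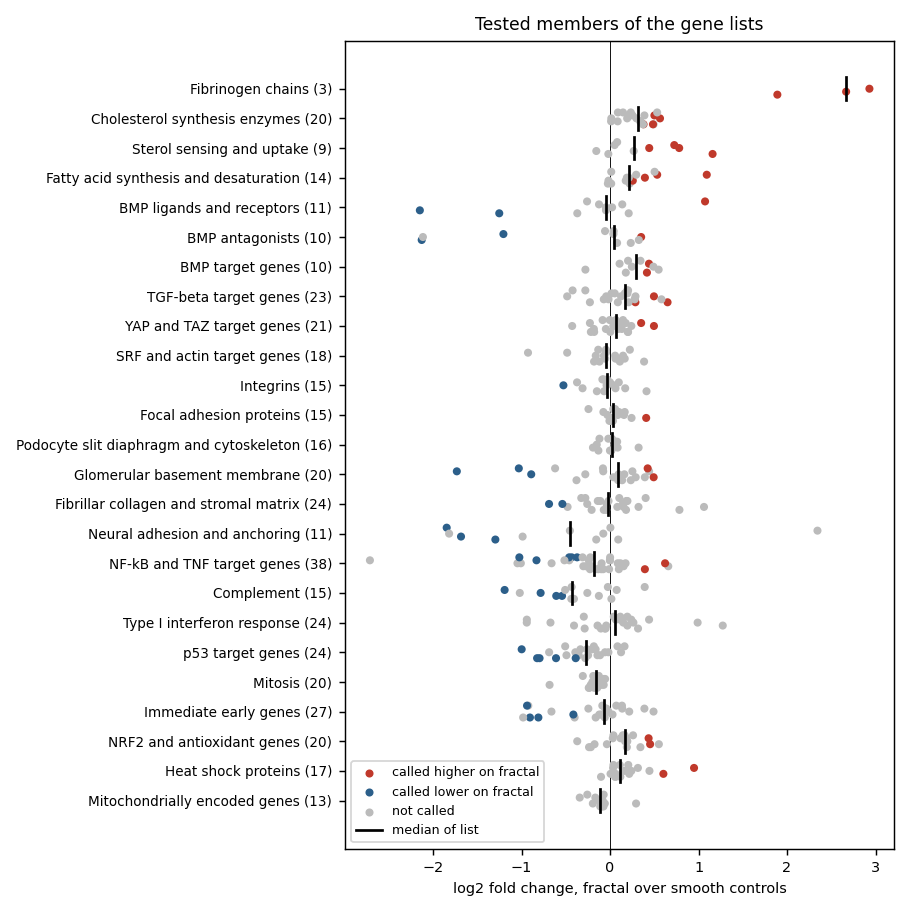
Each row is a gene list with its number of tested members, each dot the log2 fold change, fractal over smooth controls, of 1 member, and each black bar the median of the list. Fibrinogen lies far to the right, the 3 sterol and fatty acid lists have medians of 0.22 to 0.32, the p53 list -0.27, the complement list -0.43, and the actin, integrin and podocyte lists lie within 0.05 of 0 at their medians.

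Further genes chosen for a large fold change among protein-coding calls, leaving out those whose higher group averaged under 5 CPM, had mixed functions. IGFBP5 (chr2:216672105-216695525), which binds insulin-like growth factors, had 63.6, 66.5 and 61.6 CPM in fractal and 155, 150 and 158 CPM in smooth controls (-1.27 ± 0.11, edgeR adjusted p = 6.89e-08). ABCA3, a transporter of surfactant lipids in the lung, had 5.74, 6.53 and 4.95 CPM in fractal and 12.5, 14.2 and 16.9 CPM in smooth controls (-1.33 ± 0.19, 0.000225). ITPKA, an inositol phosphate kinase that bundles actin, had 5.68, 6.53 and 5.94 CPM in fractal and 16.2, 13.0 and 14.1 CPM in smooth controls (-1.25 ± 0.24, 0.00407). MFAP5, a microfibril protein, had 15.4, 15.2 and 13.4 CPM in fractal and 26.9, 36.2 and 33.4 CPM in smooth controls (-1.13 ± 0.16, 0.00021), and AFAP1L2, an adaptor of Src, fell by 1.14 on the log2 scale (0.000325). Groups were apart in each, which the rule for choosing these genes required. These 5 calls held in all 6 omissions. PPM1L, a protein phosphatase (-1.28 ± 0.26, 0.0125), and INHBE, an activin chain known from liver (-1.43 ± 0.33, 0.0208), lost theirs in 4 and 6.

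Among the higher genes SAMD11 had 9.18, 7.80 and 9.02 CPM in fractal and 3.35, 3.86 and 3.34 CPM in smooth controls (1.30 ± 0.25, edgeR adjusted p = 0.00477). MALL, a membrane protein of the MAL family, had 61.2, 92.7 and 67.0 CPM in fractal and 36.4, 44.0 and 36.0 CPM in smooth controls (0.92 ± 0.16, 0.003); fractal control replicate 2 was far above its companions, and MALL was not called in the 6 controls alone (0.0551). CPA4, a secreted carboxypeptidase, had 115, 117 and 122 CPM in fractal and 68.3, 70.6 and 62.9 CPM in smooth controls (0.81 ± 0.17, 0.0123). DUSP18, a phosphatase, and SYT12, a synaptotagmin, had 0.92 ± 0.22 (0.0243) and 0.79 ± 0.20 (0.0424). CPA4 lost its call in 4 omissions, SYT12 in 5 and DUSP18 in all 6. A few called genes outside the naming rule were picked after their values were seen. TXNIP, the thioredoxin-binding protein induced by glucose, had 129, 125 and 131 CPM in fractal and 258, 257 and 259 CPM in smooth controls (-1.0 ± 0.11, 3.53e-06), and its relative ARRDC4 had 15.8, 13.5 and 11.9 CPM in fractal and 27.7, 24.6 and 27.8 CPM in smooth controls (-0.96 ± 0.14, 0.000224). HHIP, which binds hedgehog ligands and holds the pathway back, had 735, 722 and 748 CPM in fractal and 480, 477 and 477 CPM in smooth controls (0.62 ± 0.10, 0.0012). GLI1, a factor that hedgehog signalling induces, had 0.689, 0.751 and 1.22 CPM in fractal and 2.88, 2.65 and 2.61 CPM in smooth controls (-1.61 ± 0.30, 0.00383). KIT, the receptor of stem cell factor, had 0.631, 0.892 and 0.582 CPM in fractal and 3.17, 4.03 and 3.92 CPM in smooth controls (-2.37 ± 0.41, 0.00218).

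The same contrast of topographies was then read in the treated libraries, which share no library with the controls but are part of the same model. With cytokines 719 of 16129 genes were called (4.46%), and with THP-1 macrophages 3220 (20%). Of the 105 genes higher in fractal controls 61 (58.1%) also had a positive value with cytokines, where 50.4% of all tested genes did, and 25 were called higher there, of 277 called higher with cytokines in all (1.72% of tested genes). Of the 181 lower genes 102 (56.4%) had a negative value with cytokines, where 49.4% of all genes did, and 43 were called lower there, of 442 (2.74%). Calls in the other direction numbered 8 of the 105 and 21 of the 181. With THP-1 macrophages 25 of the 105 were called higher and 24 lower, and 19 of the 181 were called lower and 65 higher, where 8.25% of all genes were called higher and 11.7% lower. A test of the difference itself, the interaction of topography with treatment in edgeR, was passed by 36 and 87 of the 105 and 181 genes for cytokines (2.7% of all genes) and by 59 and 146 for THP-1 (13.2%). Because the genes were chosen for a low adjusted p in the controls, an effect nearer 0 elsewhere is in part built in. Without the 2 libraries that stood apart, 577 genes were higher and 611 lower in the controls; with cytokines 95 of the 577 were called the same way and 62 the other way, and 141 and 83 of the 611. With THP-1 these counts were 106 and 156 of the 577 and 110 and 196 of the 611.

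On each side 7 genes were called the same way in the 3 conditions. Higher on fractal topography throughout were IGF1R, SAMD11, PDGFRB, KRT7, PLEKHA2, SLC5A3 and LAMA4. IGF1R, the receptor of insulin-like growth factor 1, stood at 111 ± 3.5 CPM in fractal and 85.9 ± 0.45 CPM in smooth controls (0.38 ± 0.07, edgeR adjusted p = 0.00383), with 0.53 ± 0.07 under cytokines and 0.31 ± 0.07 with THP-1. Lower throughout were, among the 7, MYO1D, HDAC9, CLDN1, KCNK3, MGLL and MAMDC2. The potassium channel gene KCNK3 had -1.03 ± 0.22 in controls, -1.09 ± 0.16 under cytokines and -0.80 ± 0.13 with THP-1; omitting a control library raised its adjusted p in controls to at most 0.082.

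Fibrinogen remained higher on fractal topography under cytokines. FGB stood there at 179 ± 22 CPM in fractal and 42.4 ± 25 CPM in smooth libraries (2.08 ± 0.32, edgeR adjusted p = 0.0016), FGA had 2.89 ± 0.35 and FGG 2.94 ± 0.55. With THP-1 FGB was near detection, at 0.851 ± 0.50 CPM in fractal and 0.176 ± 0.15 CPM in smooth libraries, FGG had no count in either group, FGA had none in smooth libraries, and no fibrinogen gene was called.

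The lipid and BMP genes differed more between conditions. INSIG1 stood at 11.4 ± 0.95 CPM in fractal and 19.5 ± 3.6 CPM in smooth libraries under cytokines (-0.78 ± 0.14), against 27.5 ± 0.94 CPM in fractal and 12.3 ± 1.7 CPM in smooth controls; the interaction passed (edgeR adjusted p = 7.8e-07). SCD kept a positive value of 0.18 ± 0.08 under cytokines and 0.37 ± 0.08 with THP-1, both smaller than in controls (9.5e-06 and 4e-05). CHRD stood at 7.92 ± 1.2 CPM in fractal and 26.0 ± 5.4 CPM in smooth libraries under cytokines (-1.72 ± 0.22), the direction of the controls. With THP-1 it stood at 165 ± 51 CPM in fractal and 51.5 ± 3.8 CPM in smooth libraries (1.68 ± 0.19), and the interaction passed (1e-06). GDF6 likewise kept its direction under cytokines (1.25 ± 0.13) and not with THP-1 (-0.58 ± 0.15). C3 had -1.59 ± 0.12 under cytokines and 1.53 ± 0.12 with THP-1. COL4A4 had 1.31 ± 0.24 under cytokines, the opposite of the controls (3.3e-05), and CDKN1A had 0.45 ± 0.08 (3.8e-08). ICAM1, higher in fractal controls, was lower on fractal topography under both treatments, at 23.5 ± 1.6 CPM in fractal and 81.6 ± 6.5 CPM in smooth libraries under cytokines (-1.79 ± 0.09) and -0.62 ± 0.09 with THP-1.

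**Figure D5:**
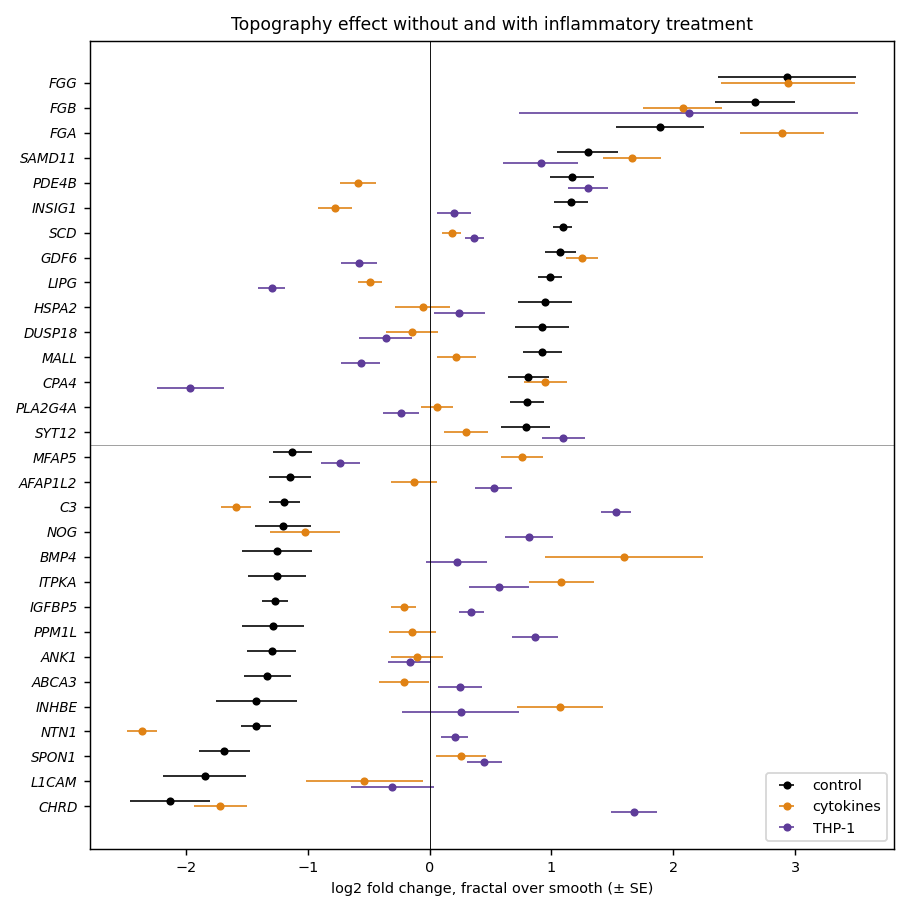
The log2 fold change, fractal over smooth, with its SE is given on the x axis for the 15 genes of largest positive and the 15 of largest negative change in controls, among protein-coding calls whose higher group averaged 5 CPM or more. Values are those in controls (black), under cytokines (orange) and with THP-1 (purple); FGG and FGA have no THP-1 value because the smooth THP-1 libraries had no count of them. The fibrinogen genes and SAMD11 lie to the right of 0 wherever they have a value, while C3 and CHRD are left of 0 in controls and under cytokines and right of 0 with THP-1.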

How the data were processed

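RNA of 18 libraries was sequenced as unstranded paired reads of poly-A RNA, per the labels' protocols. The authors deposited 1 table of raw counts per gene; the submitters' processing notes list GRCh38 (hg38) with featureCounts 1.5.0-p3, HISAT2 2.0.5 and CASAVA, without their roles, and the annotation used for counting is not given in the sources used here. All 58735 gene IDs of the table are in GENCODE 29, which gave positions, and 41937 had a current symbol. Reads of genes that overlap on opposite strands cannot be told apart, which touches 71 of the 140 genes chosen by the naming rule below.

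Samples were grouped by their topography and treatment labels. Counts were filtered with filterByExpr (min.count 10, min.total.count 15), scaled by TMM and tested with robust quasi-likelihood F-tests of edgeR 4.0.16 in R 4.3.3, fitting 1 mean per group; the SE is the absolute log2 fold change divided by the square root of F. The controls were also fitted alone. Alternatives were DESeq2 1.42.0, limma 3.58.1 (voom), other scalings and filters, a replicate block and omitted libraries. On counts simulated at the spread of the controls, the control-only model called 88% of 2-fold and 78% of 1.5-fold changes, with 4 unchanged genes called. On counts simulated at the spread of all 18 libraries, the model of 18 libraries called 7 unchanged genes. Both sets of counts were drawn independently per library from spreads estimated in these data, with changes only in genes above a minimum expected count. How many of the real calls are false therefore cannot be read from them.

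Named genes were the 15 protein-coding calls of largest change in each direction among those with groups apart and a mean of 5 CPM or more where higher, up to 4 called members per list and direction by adjusted p, the 2 most abundant members of lists without a call, and a panel of marker and pathway genes. The members and the 48 gene lists were chosen with earlier results of these data known. Other uncalled list members were picked for their role after their values were seen. A few genes are counted in the lists but not reported here. Promoter sequences are those of RefSeq on GRCh38.p14. Library totals set the precision: 3 counts, the limit that a count of 0 allows, equal 0.141 to 0.214 CPM in the controls, and such limits cover counting error only.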

Additional observations from a re-analysis of the deposited data

Results flagged for a closer look

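The effect of topography differed between untreated and treated cells in some of the named genes, by edgeR's interaction test with Benjamini-Hochberg adjustment. Each value is the log2 fold change, fractal over smooth, in controls minus that in treated libraries, so a positive value means a higher fractal-over-smooth ratio in controls. No explanation was tested, and the 2 libraries that stood apart are among the treated ones. The differences of BMP4 and COL4A3 against cytokines rest on low levels there. BMP4 had 0.424 ± 0.088 CPM in fractal and 0.130 ± 0.17 CPM in smooth libraries under cytokines, near detection. COL4A3 had 1.05 ± 0.34 CPM in fractal and 0.354 ± 0.17 CPM in smooth libraries. Neither gene was called between topographies under cytokines (edgeR adjusted p = 0.225 for BMP4 and 0.087 for COL4A3).

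Against cytokines, the difference was 2.19 for ICAM1, 1.94 for INSIG1, 1.76 for PDE4B, 1.48 for LIPG, 1.31 for CXCL8, 1.01 for IL6, 0.94 for NTN1, 0.91 for SCD, 0.86 for VCAM1 and 0.74 for PLA2G4A. It was negative with -3.29 for COL4A3, -2.85 for BMP4, -2.49 for INHBE, -2.34 for COL4A4, -2.33 for ITPKA, -1.94 for SPON1, -1.89 for MFAP5, -1.28 for CDKN1A, -1.19 for ANK1, -1.12 for ABCA3, -1.06 for IGFBP5 and -1.02 for AFAP1L2.

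Against THP-1 macrophages, the difference was 2.77 for CPA4, 2.60 for ANKRD1, 2.28 for LIPG, 1.66 for GDF6, 1.49 for MALL, 1.30 for PODXL, 1.28 for DUSP18, 1.13 for ID1, 1.03 for PLA2G4A, 1.01 for ICAM1, 0.96 for INSIG1, 0.73 for SCD, 0.62 for ACTN4, 0.48 for CCN2 and 0.41 for CCN1. It was negative with -3.81 for CHRD, -2.72 for C3, -2.15 for PPM1L, -2.13 for SPON1, -2.02 for NOG, -1.82 for ITPKA, -1.67 for AFAP1L2, -1.63 for NTN1, -1.62 for IGFBP5, -1.58 for ABCA3, -1.54 for L1CAM, -1.47 for BMP4, -1.13 for ANK1, -1.10 for VEGFA, -0.81 for IL6, -0.80 for CDKN1A, -0.69 for FN1 and -0.67 for LAMB2.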

How the results depend on the processing

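In the control comparison 1188 genes were called when the 2 libraries standing apart were left out (577 higher, 611 lower), against 286 with all 18 libraries. The 6 control libraries alone gave 2755 (1420 higher, 1335 lower), DESeq2 509 (220 higher, 289 lower), no filter 424, and leaving out 1 library 131 to 150. Upper-quartile scaling gave 294, RLE scaling 286, a filter of 1 CPM in 3 libraries 292 and limma-voom 270. The similar total of limma-voom covers only part of the same genes: it called 96 of the 105 higher and 135 of the 181 lower genes. Among the named genes 14 lost their call with limma-voom. C1R, C1S, FOSB, SYT12, ID3, PDE7B, ICAM1, NID2, KLF2, PPM1L and LUM were among those not called by it. A replicate block gave 283, and 2811 in the 6 controls, an alternative chosen after seeing the data. Same-numbered libraries did not deviate together (r 0.008, -0.012 and 0.046). These correlations cannot tell whether such libraries shared a culture or batch, which the labels do not say. The number called under cytokines was 1561 without the 2 libraries and 495 to 740 with 1 left out. With THP-1 it was 1412 in those groups alone and 2341 to 3847 with 1 left out. The interaction with cytokines was called in 688 genes by DESeq2, 983 in those groups alone, 1461 without the 2 libraries and 271 to 532 with 1 left out. The interaction with THP-1 was called in 3642 without the 2 libraries and 1632 to 3266 with 1 left out; by upper-quartile scaling 1014 of 2091 calls were positive, against 1271 of 2134. With the 2 libraries left out, an alternative chosen after seeing the data, 95 and 62 of the 577 genes higher in controls were called the same and the other way under cytokines, and 141 and 83 of the 611 lower genes; with THP-1 these were 106 and 156, and 110 and 196. Where a count differed for reasons other than fewer libraries or genes, the cause was not tested.

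Of 137 named genes tested, 94 were called, 42 of them in each omission of a control library. Genes near 0 changed sign: by upper-quartile scaling CD2AP had -0.0019 and NR1H2 -0.0029, and without a filter ACTN4 had 0.0151, SERPINA1 0.0084 and CCND1 0.00066. With 1 library left out, log2 fold changes ran from -0.027 to 0.17 for PODXL, -0.0046 to 0.073 for CD2AP, -0.016 to 0.077 for NR1H2, -0.026 to 0.014 for ACTN4, -0.24 to 0.17 for SERPINA1, -0.033 to 0.0082 for CCND1, -0.050 to 0.019 for EPHA2, -0.52 to 0.27 for CSF1R and -0.47 to 0.12 for APOA1. A count of 0 allows up to 0.214 CPM in the shallowest control library, which limits what can be said of genes at that level.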
